A study of Rattus norvegicus with 24 samples.

Results

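Gadd45a (ENSRNOG00000005615), Gadd45b (ENSRNOG00000019822) and Gadd45g (ENSRNOG00000013090) are the 3 genes of the Gadd45 growth arrest and DNA damage family, chosen by these Ensembl gene IDs out of the 32754 rows of a count table of rat cortical cells. All 3 IDs were in the table and all 3 passed the filter on low counts, which left 15908 genes. The table carries no gene names, and the names used here came with the 3 IDs. The cells were rat neurons plated in 6-well plates and cultured for 8 days, after which the medium was replaced by a medium with 250 μM glutamate or by fresh growth medium, and the plates were imaged for 4 h. Glutamate is the main excitatory transmitter of the brain, and an excess of it injures neurons, which is the excitotoxicity named in the study's title. The 8 groups had 3 libraries each and were IS141 with glutamate, IS141 in medium, AH609 with glutamate, AH609 in medium, AH236 with glutamate, AH236 in medium, DMSO with glutamate and DMSO in medium. IS141, AH609 and AH236 are agents known by code names, whose doses and times the labels do not give, and DMSO, a common solvent, is taken here as their control. The time at which RNA was taken is not given in the sources used here. Library totals lay between 22509400 and 35496447 counts.

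Gadd45 proteins are small acidic nuclear proteins with no known enzyme activity of their own, which act by binding others. They bind PCNA and the cell cycle inhibitor p21, inhibit the Cdk1 and cyclin B1 complex, activate the kinase Map3k4 upstream of the p38 and JNK MAP kinases, and have been linked to active DNA demethylation. Gadd45a is a transcriptional target of p53 after DNA damage, Gadd45b is a target of NF-kB and of TGF-beta signalling, and Gadd45g was found as a cytokine-responsive gene. In the mouse brain Gadd45b is induced by neuronal activity and has been tied to demethylation at the promoters of growth factor genes such as Bdnf.

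Because the 3 genes rose together with glutamate, and because they sit on 3 different chromosomes, the RefSeq promoter window of each is shown first (build GRCr8, 250 bases before the start to 50 bases after it, 5′ to 3′ on the gene's own strand). Gadd45a lies on the minus strand with its window at chr4:97486750-97487049, Gadd45b on the minus strand at chr7:9430669-9430968 and Gadd45g on the minus strand at chr17:13530302-13530601. The counts were made on the build Rnor_6.0, so these coordinates belong to the printed sequences alone. Capitals mark letters that match any of the motifs named after the sequences.
Gadd45a: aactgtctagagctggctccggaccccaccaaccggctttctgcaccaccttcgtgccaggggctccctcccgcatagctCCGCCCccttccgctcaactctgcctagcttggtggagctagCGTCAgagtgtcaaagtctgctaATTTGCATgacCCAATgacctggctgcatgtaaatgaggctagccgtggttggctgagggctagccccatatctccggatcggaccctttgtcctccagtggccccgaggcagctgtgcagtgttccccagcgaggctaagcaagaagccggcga
Gadd45b: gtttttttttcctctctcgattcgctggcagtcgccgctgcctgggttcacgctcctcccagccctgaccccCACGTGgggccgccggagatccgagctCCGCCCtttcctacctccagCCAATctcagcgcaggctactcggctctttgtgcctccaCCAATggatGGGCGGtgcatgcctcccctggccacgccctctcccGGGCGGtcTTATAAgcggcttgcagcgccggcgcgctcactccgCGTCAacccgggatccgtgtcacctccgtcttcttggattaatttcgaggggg
Gadd45g: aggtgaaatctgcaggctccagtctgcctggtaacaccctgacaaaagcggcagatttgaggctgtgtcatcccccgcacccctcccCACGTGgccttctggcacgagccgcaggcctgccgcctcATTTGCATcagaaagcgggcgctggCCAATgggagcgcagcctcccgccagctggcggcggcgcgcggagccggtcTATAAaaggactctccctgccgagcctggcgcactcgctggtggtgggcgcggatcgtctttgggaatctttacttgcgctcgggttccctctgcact

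Motifs were searched as exact letters on both strands, and positions give the leftmost base of a match on the printed strand, counted from the gene's start. A CCAAT box (CCAAT) was found in all 3 windows, at -94 in Gadd45a, at -131 and -92 in Gadd45b and at -99 in Gadd45g, and 37.7% of 27457 rat promoter windows of the same length hold one. The octamer ATTTGCAT, the letters bound by POU factors such as Oct-1, was present at -105 in Gadd45a and at -124 in Gadd45g and absent from the Gadd45b window, and 1.64% of windows hold it. The E-box CACGTG, a site of basic helix-loop-helix factors, was present at -178 in Gadd45b and at -163 in Gadd45g and absent from the Gadd45a window, with a share of 6.65% of windows. TATAA was found at -38 in Gadd45b, where it overlaps its own reverse match at -39, and at -48 in Gadd45g, with a share of 26.1%. The GC box GGGCGG was matched 1 time in Gadd45a and 3 times in Gadd45b (34.9% of windows), and the half-site TGACG of the cAMP response element 1 time in each of these 2 windows (22.0%). The AP-1 letters TGACTCA (4.53% of windows), the full cAMP response element TGACGTCA (1.91%), which contains TGACG, and the Egr letters GCGNGGGCG (5.29%) had no match in any of the 3 windows. These matches describe letters and not factor binding.

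The library of DMSO replicate 1 in medium stood apart from its group and is set out before the results that rest on it. Its counts differed from those of the other 2 DMSO medium libraries by a chi-square of 33.6 and 42.4 per degree of freedom over genes, against 4.82 to 18.1 for the other pairs of replicates in all 8 groups. For the family it was the highest of the 12 medium libraries. Against the mean log2 level of the other 2 DMSO medium libraries it was 2.37-fold higher for Gadd45a, 1.91-fold higher for Gadd45b and 4.53-fold higher for Gadd45g. These gaps were 61.7%, 21.3% and 39.3% of the log2 difference between the DMSO glutamate libraries and those 2 medium libraries, in the same order. What set this library apart was not tested, and the comparisons that rest on it are also given without it. In bulk RNA of this kind, fewer cells of a type and less RNA per cell cannot be told apart, and the labelled cell type could not be checked against markers because none of the table's IDs could be matched to a name.

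All 3 members rose with glutamate in every treatment, Gadd45g the most and Gadd45a the least. Over all 4 treatments the rise was 31.7-fold for Gadd45g, 17.1-fold for Gadd45b and 3.23-fold for Gadd45a. All 12 glutamate libraries lay above all 12 medium libraries for each gene. The share of all genes separated in this way was not counted. Levels are given as CPM, the count scaled to the size of its library with TMM factors. CPM depends on transcript length, so levels were not compared between genes.

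**Figure D1:**
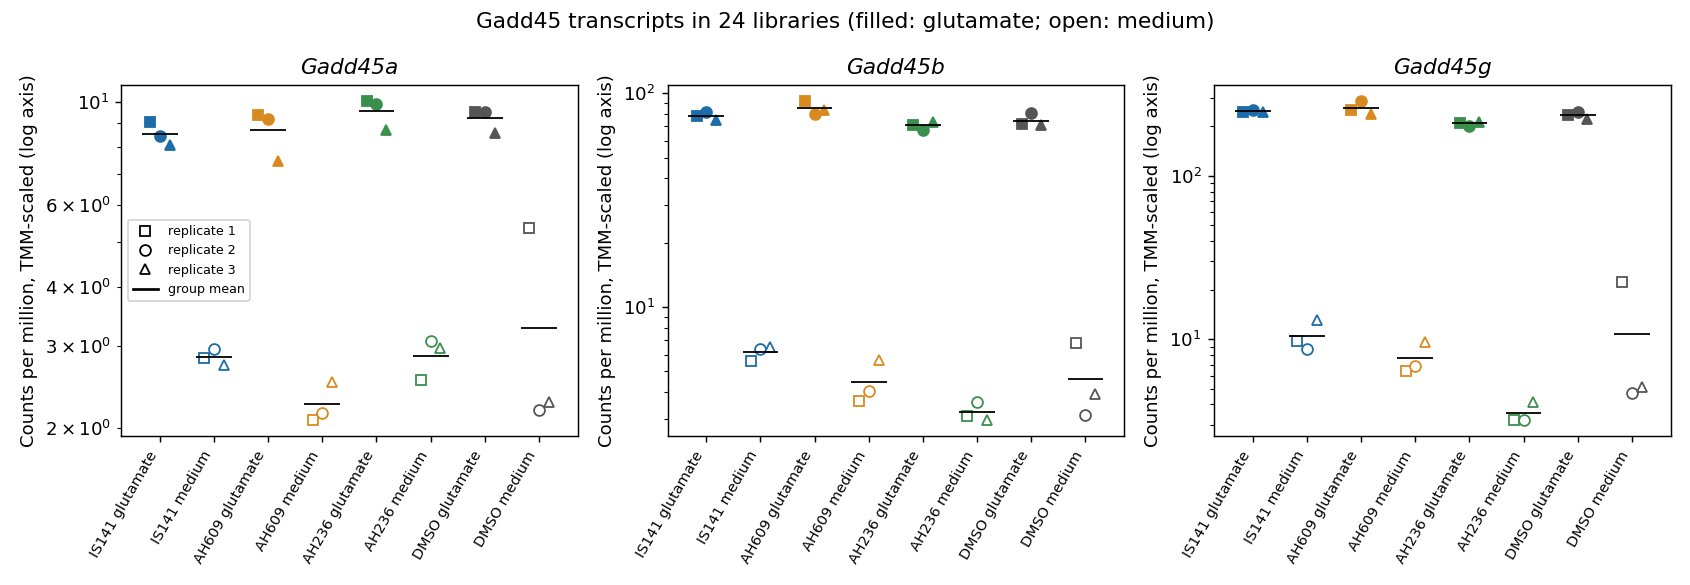
TMM-scaled CPM on a log axis for each of the 24 libraries, with 1 panel per gene, filled symbols for glutamate, open symbols for medium, symbol shape for the replicate and a line for the group mean. In each panel the 12 glutamate libraries lie above the 12 medium libraries, and DMSO replicate 1 is the highest medium library, with 22.5 CPM for Gadd45g.

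Gadd45a, the p53-regulated member, had between 191 and 290 counts in glutamate libraries and between 52 and 159 in medium libraries. In DMSO cultures its level was 9.54, 9.52 and 8.60 CPM in glutamate, against 5.36, 2.18 and 2.27 CPM in medium. The glutamate libraries lay close together, and the medium libraries did so only without replicate 1. The lowest, median and highest of the 12 glutamate libraries were 7.48, 9.12 and 10.1 CPM, and those of the 12 medium libraries 2.08, 2.63 and 5.36 CPM. The log2 fold change over all 4 treatments was 1.69 ± 0.10 (SE; edgeR quasi-likelihood test, adjusted p = 2.97e-13), and 616 genes called higher rose by more. By treatment the log2 fold change was 1.94 ± 0.22 in AH609 cultures, 1.73 ± 0.20 in AH236 cultures, 1.59 ± 0.21 in IS141 cultures and 1.49 ± 0.20 in DMSO cultures, with edgeR adjusted p-values between 4.69e-08 and 7.57e-07. Without DMSO medium replicate 1 the DMSO value was 2.04 ± 0.13, a 4.12-fold rise in place of 2.82-fold.

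Gadd45b, the member known as an activity-induced gene in mouse neurons, had 1476 to 2824 counts in glutamate libraries and 88 to 201 in medium libraries. In DMSO cultures it stood at 71.6, 80.7 and 71.0 CPM in glutamate, against 6.78, 3.15 and 3.93 CPM in medium. No medium library came near the glutamate range, which ran from 67.5 through a median of 76.4 to 92.2 CPM, while the medium range ran from 2.96 through a median of 3.99 to 6.78 CPM. The log2 fold change over all 4 treatments was 4.10 ± 0.08 (SE; edgeR adjusted p = 5.43e-20), with 67 called genes rising by more. It was 4.45 ± 0.17 in AH236 cultures, 4.26 ± 0.17 in AH609 cultures, 3.67 ± 0.16 in IS141 cultures and 4.01 ± 0.16 in DMSO cultures, at edgeR adjusted p-values between 1.19e-14 and 1.25e-13. The DMSO rise was 16.1-fold with all libraries and 20.8-fold without DMSO medium replicate 1.

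Gadd45g, the cytokine-responsive member, had 4398 to 8042 counts in glutamate libraries and 97 to 668 in medium libraries. Its DMSO cultures had 234, 244 and 222 CPM in glutamate, against 22.5, 4.72 and 5.13 CPM in medium. The spread within DMSO medium was the widest of any group and gene, a coefficient of variation of 94.2%, and 5.86% over the 2 libraries other than replicate 1. Across the 12 glutamate libraries the lowest, median and highest were 201, 241 and 287 CPM, and across the 12 medium libraries 3.21, 6.67 and 22.5 CPM. The rise over all 4 treatments was 4.99 ± 0.20 on the log2 scale (SE; edgeR adjusted p = 1.34e-13), and 30 called genes rose by more. By treatment it was 5.88 ± 0.43 in AH236 cultures, 5.08 ± 0.40 in AH609 cultures, 4.56 ± 0.38 in IS141 cultures and 4.44 ± 0.38 in DMSO cultures (edgeR adjusted p-values between 2.02e-09 and 2.21e-08). In DMSO cultures the fold was 21.7 with all libraries and 47.2 without DMSO medium replicate 1.

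A call for a rise was common among all genes. The share of all genes called higher in glutamate was 30.1% in AH609 cultures, 29.5% in AH236 cultures, 28.9% in IS141 cultures, 28.6% in DMSO cultures and 38.8% over all 4 treatments. The count of 3 of 3 members called is to be read against these shares. Without DMSO medium replicate 1 the log2 fold change over all 4 treatments was 5.27 for Gadd45g, 4.19 for Gadd45b and 1.82 for Gadd45a. Over the 15908 genes tested, the log2 change across the 4 treatments had a median of 0.00037. The TMM scaling itself holds this median near 0, and with library totals it was -0.19.

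**Figure D2:**
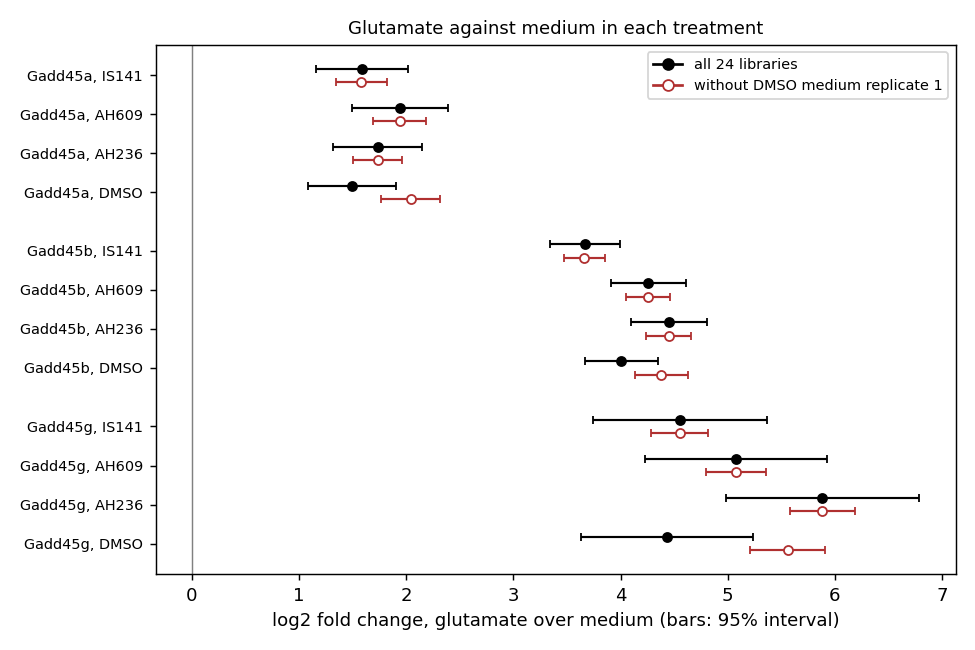
Log2 fold change of glutamate over medium for each gene and treatment, with 95% intervals from the edgeR fit, for all 24 libraries (filled) and without DMSO medium replicate 1 (open). All intervals lie above 0. The estimates run from 1.49 for Gadd45a with DMSO to 5.88 for Gadd45g with AH236, and leaving out that library moves the DMSO values up and narrows the intervals.

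Whether the members changed unequally was asked with the ratio of their counts within a library, which no scaling of the library alters. The log2 ratio of Gadd45g to Gadd45a averaged 4.72 in glutamate libraries and 1.34 in medium libraries, a mean difference of 3.38 over the 4 treatments, or 10.4-fold. The ratio of Gadd45b to Gadd45a averaged 3.10 in glutamate and 0.70 in medium, a difference of 2.40, or 5.27-fold. Both ratios were higher in each of the 12 glutamate libraries than in any medium library. How many other pairs of genes separate in this way, or reach the p-values given below, was not counted. The ratio of Gadd45g to Gadd45b averaged 1.62 in glutamate and 0.64 in medium, a difference of 0.98, or 1.97-fold, and here the ranges overlapped, with 1.44 to 1.84 in glutamate and -0.17 to 1.73 in medium. The overlap came from DMSO medium replicate 1, at 1.73, and every other medium library lay below the glutamate range. Two-sided exact permutation of the medium within treatments gave p = 1.25e-05 for each ratio to Gadd45a, the smallest that its 160000 arrangements allow, and p = 5e-05 for Gadd45g over Gadd45b (adjusted over the 3 ratios, 1.88e-05 for each ratio to Gadd45a and 5e-05 for the other). With DMSO medium replicate 1 left out, the mean differences were 3.45 for Gadd45g over Gadd45a, 2.37 for Gadd45b over Gadd45a and 1.08 for Gadd45g over Gadd45b, each with an exact permutation p of 1.25e-05, the smallest that the 80000 arrangements then allow, and the Gadd45g over Gadd45b ranges no longer overlapped. The log2 difference of Gadd45g over Gadd45b between the media was 1.43 in AH236 cultures, 0.91 in IS141 cultures, 0.81 in AH609 cultures and 0.75 in DMSO cultures. For Gadd45g over Gadd45a it was 4.15, 2.99, 3.15 and 3.21 in the same order, and for Gadd45b over Gadd45a 2.71, 2.08, 2.34 and 2.46. The DMSO differences without that library were 1.17 for Gadd45g over Gadd45b, 3.52 for Gadd45g over Gadd45a and 2.35 for Gadd45b over Gadd45a, so that DMSO stood next to AH236 for Gadd45g over Gadd45b in place of last. With it or without it, the glutamate minus medium difference of each ratio was largest in AH236 cultures, whose ratios themselves were the lowest of the 4 treatments in both media. Their Gadd45g over Gadd45a ratio averaged 4.45 in glutamate and 0.30 in medium, against 4.66 and 1.45 in DMSO cultures. Differences between treatments in these ratios were not tested.

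**Figure D3:**
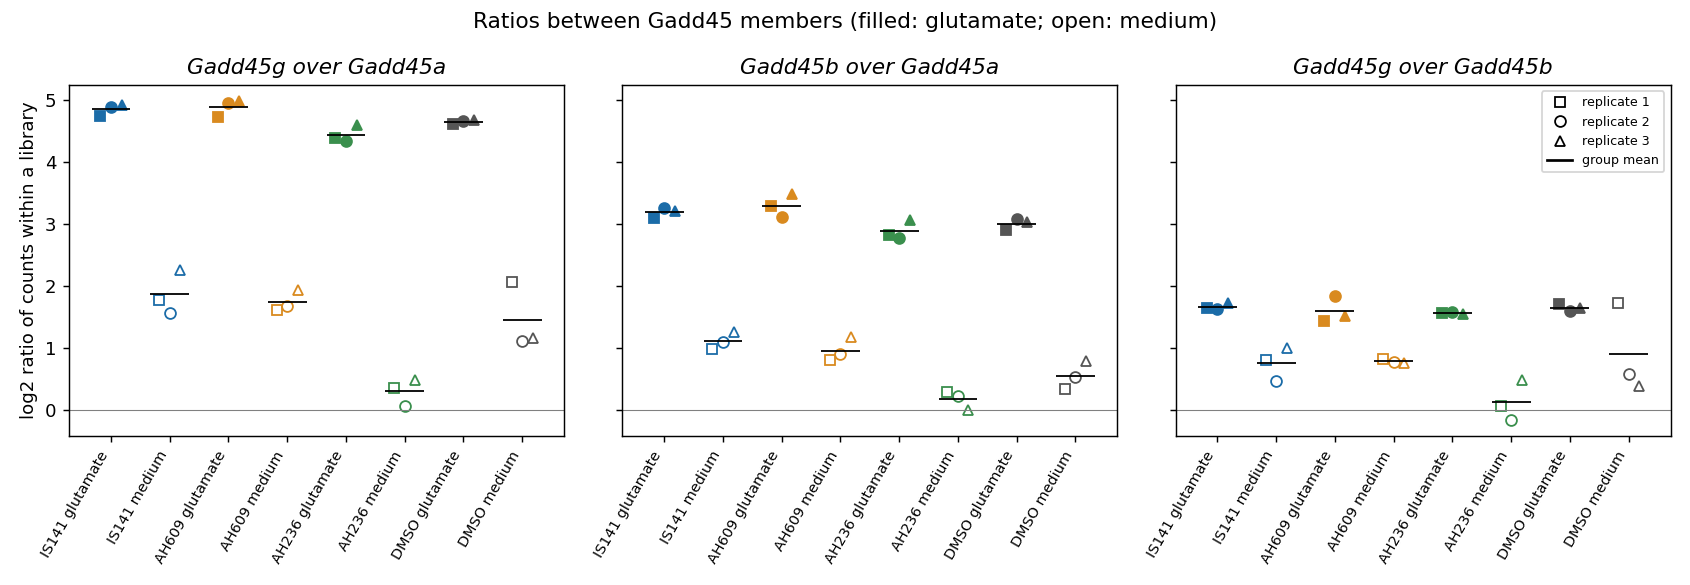
Log2 ratio of the counts of 2 members within each library, by group, with filled symbols for glutamate, open symbols for medium and lines for group means. Gadd45g and Gadd45b stand higher against Gadd45a in glutamate, the mean difference being 3.38 and 2.40, and in medium the AH236 libraries have the lowest ratios to Gadd45a.

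The order of the 8 group levels was led by the 4 glutamate groups for every member. Overlap of neighbouring groups is described without a count of how often groups of all genes stay apart. For Gadd45a they were AH236, DMSO, AH609 and IS141, with means of 9.55 ± 0.722, 9.22 ± 0.538, 8.69 ± 1.05 and 8.52 ± 0.488 CPM (SD, n = 3 each), and each overlapped the next. The medium groups followed with DMSO at 3.27 ± 1.81, AH236 at 2.85 ± 0.289, IS141 at 2.83 ± 0.111 and AH609 at 2.24 ± 0.226 CPM. Of these neighbours only IS141 and AH609 did not overlap. For Gadd45b the glutamate groups ran AH609, IS141, DMSO and AH236, at 85.3 ± 6.34, 78.1 ± 3.37, 74.4 ± 5.43 and 70.7 ± 2.93 CPM, again each overlapping the next. In medium the order was IS141 at 6.16 ± 0.509, DMSO at 4.62 ± 1.91, AH609 at 4.45 ± 1.07 and AH236 at 3.22 ± 0.339 CPM, and AH609 and AH236 did not overlap. For Gadd45g the glutamate order was the same as for Gadd45b, with 259 ± 24.9, 247 ± 3.72, 233 ± 11.1 and 209 ± 6.50 CPM, and only AH609 and IS141 overlapped. In medium DMSO stood at 10.8 ± 10.2, IS141 at 10.5 ± 2.3, AH609 at 7.65 ± 1.72 and AH236 at 3.53 ± 0.537 CPM, and AH609 and AH236 did not overlap. Without its replicate 1, DMSO in medium averaged 4.92 ± 0.288 CPM for Gadd45g, 3.54 ± 0.554 CPM for Gadd45b and 2.23 ± 0.0643 CPM for Gadd45a (SD, n = 2), which placed it between AH609 and AH236 for Gadd45g and Gadd45b and lowest for Gadd45a.

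Each agent was compared with DMSO in glutamate, to ask whether it altered the level reached under exposure. No member was called for any agent, while the share of all genes called was 10.3% for AH236, 8.46% for IS141 and 2.62% for AH609. Gadd45a differed from DMSO by -0.11 with IS141 (95% interval -0.49 to 0.26, log2), by -0.09 with AH609 (-0.47 to 0.29) and by 0.05 with AH236 (-0.32 to 0.42). Gadd45b differed by 0.07 with IS141 (-0.20 to 0.34), by 0.20 with AH609 (-0.07 to 0.46) and by -0.07 with AH236 (-0.34 to 0.20). Gadd45g had 244, 251 and 246 CPM with IS141, 251, 287 and 239 CPM with AH609 and 211, 201 and 214 CPM with AH236, against 234, 244 and 222 CPM with DMSO. The AH236 libraries lay below all DMSO libraries and the IS141 libraries just above them. How many of all genes separate in this way was not counted. The log2 differences were -0.16 (-0.82 to 0.50) for AH236, 0.08 (-0.57 to 0.74) for IS141 and 0.15 (-0.51 to 0.81) for AH609. The edgeR adjusted p-values of these 9 tests lay between 0.489 and 0.906. For Gadd45g the estimated biological coefficient of variation was 33.4% with all libraries and 9.76% without DMSO medium replicate 1, a library of another group that enters through the shared fit. The intervals were derived from the quasi-likelihood F test and not from this coefficient. Without DMSO medium replicate 1 the intervals for Gadd45g narrowed to -0.37 to 0.05 with AH236, -0.13 to 0.29 with IS141 and -0.07 to 0.36 with AH609, and no member was called. In a fit of the AH236 and DMSO glutamate groups alone, the fall of Gadd45g was called at -0.17 (edgeR adjusted p = 0.0322). No other alternative run for this comparison called it, and the share of genes called in that fit was not counted.

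In medium, the comparison with DMSO turned on DMSO replicate 1. With all libraries, the share of genes called was 10.5% for AH236, 7.98% for IS141 and 3.06% for AH609, and among the members only Gadd45g with AH236 was called, in a lower direction. Gadd45g had 3.23, 3.21 and 4.15 CPM in AH236 medium libraries, against 22.5, 4.72 and 5.13 CPM in DMSO medium libraries. All 3 AH236 libraries lay below all 3 DMSO libraries, the nearest pair being 4.15 CPM with AH236 and 4.72 CPM with DMSO. The share of all genes with such a separation was not counted. The log2 fold change was -1.61 ± 0.45 (SE; edgeR adjusted p = 0.0329), and -0.48 ± 0.21 without DMSO replicate 1 (adjusted p = 0.182). The call was also lost without any 1 of the 3 AH236 libraries, with no filter on low counts, in a fit that blocks on the number in the titles and in a fit of the compared groups alone. Each of these values lay between -1.74 and -1.54.

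IS141 showed the reverse dependence in medium. Gadd45b had 5.58, 6.35 and 6.54 CPM with IS141, against 6.78, 3.15 and 3.93 CPM with DMSO, and Gadd45g had 9.71, 8.74 and 13.1 CPM with IS141, against 22.5, 4.72 and 5.13 CPM with DMSO. For both genes the IS141 libraries lay between DMSO replicate 1 and the other 2 DMSO libraries. With all libraries the differences were 0.41 ± 0.19 for Gadd45b (edgeR adjusted p = 0.221) and -0.04 ± 0.40 for Gadd45g (adjusted p = 0.975). Without DMSO replicate 1, which left the other 2 DMSO libraries, both were called higher with IS141. Gadd45b was higher by 0.79 ± 0.15 or 1.72-fold (edgeR adjusted p = 0.000472) and Gadd45g by 1.09 ± 0.18 or 2.13-fold (adjusted p = 0.000421), where 12% of all genes were called. With DMSO replicate 2 or 3 left out instead, the values were 0.21 and 0.30 for Gadd45b and -0.38 and -0.39 for Gadd45g, and none was called. Gadd45a differed by -0.20 with all libraries (95% interval -0.67 to 0.26) and by 0.35 without DMSO replicate 1 (0.03 to 0.66; adjusted p = 0.157).

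With AH609 in medium no member was called, with DMSO replicate 1 or without it. Gadd45g had 6.43, 6.91 and 9.62 CPM with AH609, and its difference from DMSO was -0.49 with all libraries (-1.39 to 0.40) and 0.63 without DMSO replicate 1 (0.23 to 1.03; edgeR adjusted p = 0.0575). Gadd45b differed by -0.06 and by 0.32 without that library, and Gadd45a by -0.54 and by 0.01. The remaining AH236 differences in medium were -0.52 for Gadd45b (-0.95 to -0.08; adjusted p = 0.124), or -0.14 without DMSO replicate 1, and -0.19 for Gadd45a, or 0.36 without it. Without that library the share of genes called was 8.72% for AH236 and 6.22% for AH609.

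**Figure D4:**
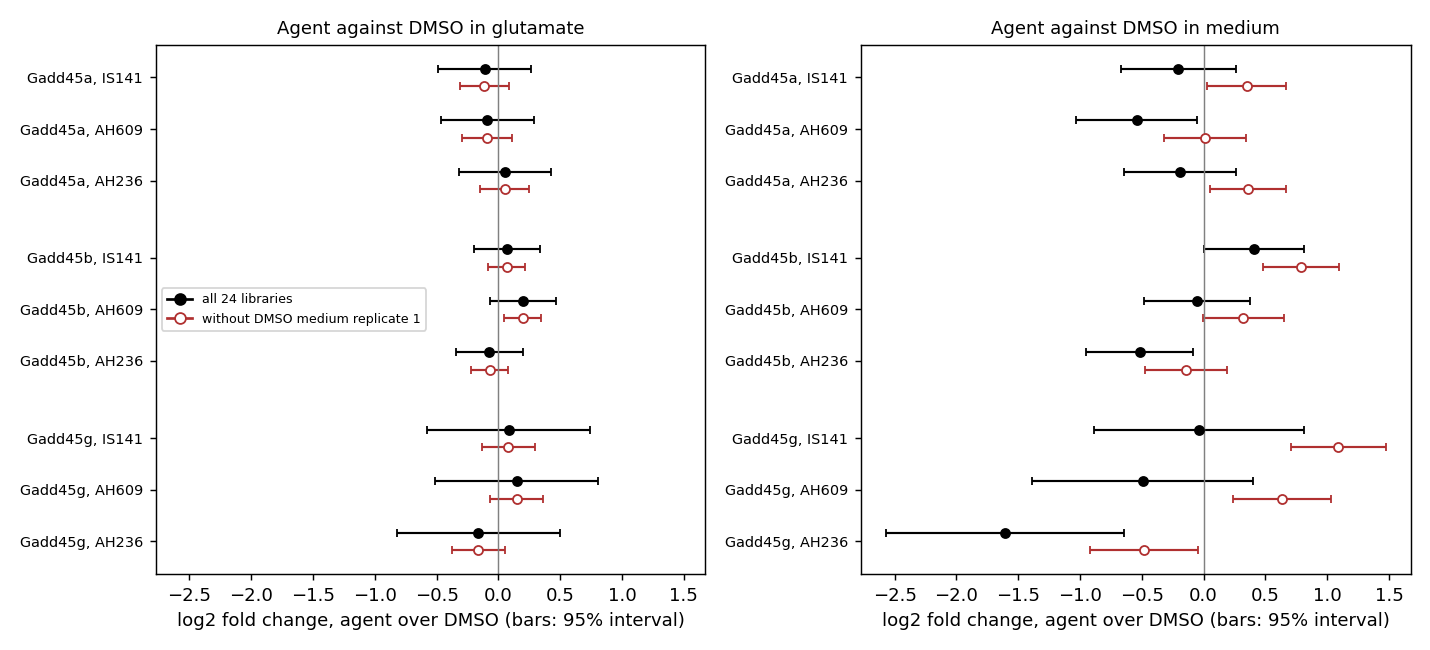
Log2 fold change of each agent over DMSO, in glutamate (left) and in medium (right), with 95% intervals, for all 24 libraries (filled) and without DMSO medium replicate 1 (open). In glutamate the values lie between -0.16 and 0.20, and in medium every value moves up without that library, Gadd45g with IS141 to 1.09.

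The difference between the glutamate effect with an agent and that with DMSO was tested as an interaction. No member was called with all libraries, where the share of genes called was 1.55% for AH236, 0.779% for IS141 and 0.0251% for AH609. For Gadd45g the log2 difference in effect was 0.12 ± 0.51 (SE) for IS141, 0.64 ± 0.52 for AH609 and 1.45 ± 0.55 for AH236. The AH236 value had an unadjusted edgeR p of 0.0187 and an adjusted p of 0.226. For Gadd45b the values were -0.34, 0.25 and 0.45 in the same order, and for Gadd45a 0.09, 0.45 and 0.24. Without DMSO medium replicate 1 the AH236 values were 0.32 ± 0.23 for Gadd45g (adjusted p = 0.569), 0.07 for Gadd45b and -0.31 for Gadd45a, the last with its sign turned. The AH609 values all turned sign without it, to -0.49 for Gadd45g, -0.12 for Gadd45b and -0.10 for Gadd45a, and none of these 6 was called. The glutamate effect was then smaller with IS141 than with DMSO for 2 members, at -1.01 ± 0.21 for Gadd45g (edgeR adjusted p = 0.00676) and -0.72 ± 0.17 for Gadd45b (adjusted p = 0.00846), while Gadd45a was not called at -0.46 ± 0.18 (adjusted p = 0.168). Without that library the share of genes called was 4.60% for IS141, 3.08% for AH236 and 1.33% for AH609. The interactions and the comparisons in medium share the DMSO medium libraries and are not separate evidence.

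The 3 pairs of agents were also compared, and these comparisons do not use the DMSO libraries for their means. Over both media, Gadd45b was lower with AH236 than with IS141, at -0.53 ± 0.12 on the log2 scale (SE; edgeR adjusted p = 0.00476), and so was Gadd45g, at -0.91 ± 0.28 (edgeR adjusted p = 0.0353), with 16.0% of all genes called. In medium Gadd45b had 3.09, 3.60 and 2.96 CPM with AH236, against 5.58, 6.35 and 6.54 CPM with IS141, a log2 difference of -0.93 ± 0.20 (adjusted p = 0.00789). Gadd45g had 3.23, 3.21 and 4.15 CPM with AH236, against 9.71, 8.74 and 13.1 CPM with IS141, a log2 difference of -1.57 ± 0.46 (adjusted p = 0.0454). The groups did not overlap for either gene, and the share of all genes without overlap was not counted. Gadd45a was not called over both media, at 0.09 (-0.21 to 0.39). In glutamate alone the differences were -0.14 ± 0.13 for Gadd45b and -0.24 ± 0.31 for Gadd45g and were not called. These comparisons within 1 medium were added after the values had been seen, and the difference between the media was not tested. Without DMSO medium replicate 1 in the shared fit, the values over both media were -0.53 (adjusted p = 8.37e-06) and -0.91 (adjusted p = 3.01e-06), with 22.7% of genes called. With all libraries the call for Gadd45g was lost when any 1 of the 12 IS141 and AH236 libraries was left out, at adjusted p-values between 0.0505 and 0.0892, while that for Gadd45b was kept.

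Between AH236 and AH609 over both media no member was called, where 0.685% of genes were, and the differences were 0.25 (-0.06 to 0.56) for Gadd45a, -0.37 (-0.63 to -0.10) for Gadd45b and -0.71 (-1.32 to -0.10) for Gadd45g. In medium alone Gadd45g differed by -1.11 and Gadd45b by -0.46, and in glutamate alone by -0.31 and -0.27, and none of these 4 was called (edgeR adjusted p between 0.423 and 0.781). Without DMSO medium replicate 1 in the fit, the same sizes over both media were called for Gadd45b (edgeR adjusted p = 0.00714) and for Gadd45g (adjusted p = 0.000462), with 3.98% of genes called. Both were also called with the compared groups alone (edgeR adjusted p = 0.0119 and 0.00298), a fit whose share of genes called was not counted. Between IS141 and AH609 no member was called, where 2.67% of genes were, with 0.16 (-0.16 to 0.47) for Gadd45a, 0.17 (-0.08 to 0.42) for Gadd45b and 0.20 (-0.36 to 0.75) for Gadd45g. In medium alone these were 0.34, 0.46 and 0.46, and in glutamate alone the signs turned, to -0.02, -0.13 and -0.06, with none called. Doses of the agents are not given, so these are differences between cultures as treated and not at matched doses.

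Within a medium, Gadd45b and Gadd45g varied together across libraries, and no correlation of Gadd45a with them passed the threshold. Over the 12 glutamate libraries log2 levels of Gadd45g and Gadd45b had a Pearson r of 0.678 (permutation p = 0.0150, 0.0450 after adjustment over 6 relations) and a Spearman rho of 0.755 (permutation p = 0.00612, adjusted 0.0184), and r was 0.640 without the 2 libraries farthest from the median of Gadd45b. Over the 12 medium libraries r was 0.898 (permutation p = 6.00e-05, adjusted 0.000360) and rho 0.916 (permutation p = 6.00e-05, adjusted 0.000360), with r = 0.863 without the 2 farthest libraries and 0.897 without DMSO replicate 1. Gadd45a and Gadd45g had r = -0.26 in glutamate (permutation p = 0.418, adjusted 0.418) and 0.544 in medium (permutation p = 0.0677, adjusted 0.108), and the value in medium rested on DMSO replicate 1, since r was 0.0012 without it. For Gadd45a and Gadd45b r was -0.29 in glutamate (permutation p = 0.353, adjusted 0.418) and 0.507 in medium (permutation p = 0.0718, adjusted 0.108), with 0.294 without DMSO replicate 1. These tests were two-sided, over 100000 permutations each. Spearman's rho of Gadd45a was -0.41 with each of the other members in glutamate, and in medium it was 0.112 with Gadd45g and 0.217 with Gadd45b (adjusted p between 0.276 and 0.731). The 12 libraries of a medium belong to 4 treatments and share their scaling, so these relations include the differences between treatments. The permutations moved libraries freely across treatments, so their p-values do not take this grouping into account.

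**Figure D5:**
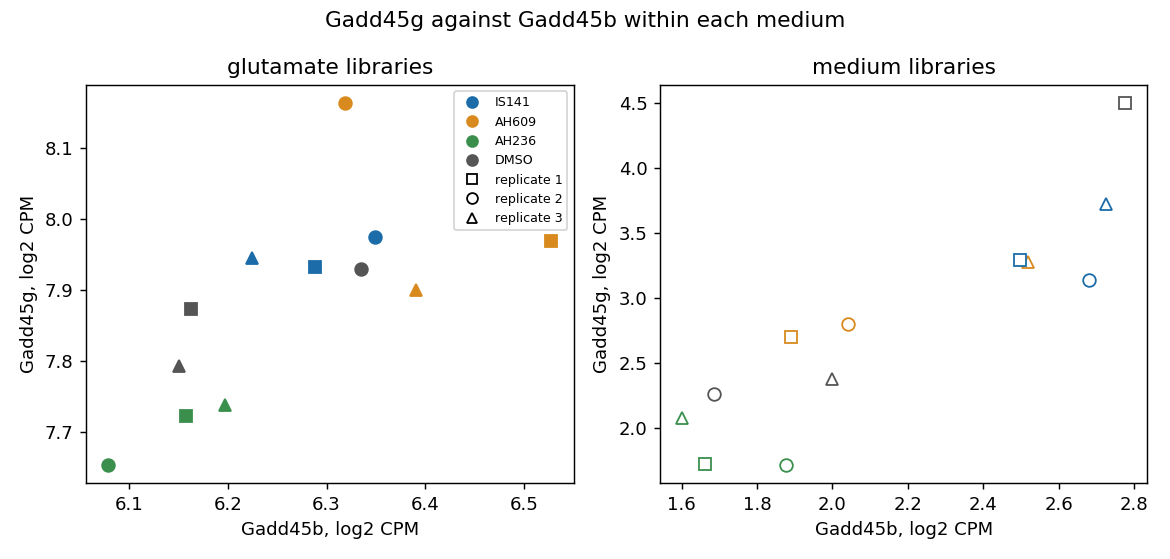
Log2 CPM of Gadd45g against that of Gadd45b for the 12 glutamate libraries (left) and the 12 medium libraries (right), with colour for the treatment and shape for the replicate. The genes rise together in both panels, with r = 0.678 and 0.898, AH236 libraries lowest in Gadd45g in both and DMSO replicate 1 at the top in medium.

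The genes most like each member were sought among 12168 genes whose mean log2 CPM was 1 or more, by the Pearson r of log2 CPM over the 24 libraries after the mean of each medium was subtracted. For Gadd45b the most similar was ENSRNOG00000000521, with r = 0.962, and for Gadd45g it was ENSRNOG00000001416, with r = 0.979. Both kept the first place without DMSO medium replicate 1, at 0.963 and 0.968. Gadd45g ranked 25th for Gadd45b at r = 0.883, and Gadd45b ranked 63rd for Gadd45g, and without that library the ranks were 26 and 37 at r = 0.880. Gadd45a had no gene above r = 0.859, which fell to 0.740 without DMSO medium replicate 1, and its own relatives ranked 1085th (Gadd45b, r = 0.435) and 729th (Gadd45g, r = 0.494). Both positions rested on that library, since without it they were 2456 (r = 0.187) and 6864 (r = -0.03). These values describe likeness over libraries that share scaling and treatment, and the IDs could not be given names.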

How the data were processed

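The values were RNA-seq counts of 24 libraries. The labels' protocols name the RNeasy Mini Kit for RNA and the NEBNext Ultra II Directional kit for libraries. The authors deposited raw counts for each Ensembl gene ID, as whole numbers, in a single table. The submitters' processing notes name cutadapt 2.3, bcl2fastq, RSEM 1.3.3, STAR 2.7.8a, FastQC 0.11.8 and the build Rnor_6.0. Their roles, the annotation and the use of strand are not stated there. Because RSEM estimates counts, the deposited counts may be rounded estimates.

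Sample titles gave the groups. A pair of AH236 glutamate titles carry the number 2, and the later is called replicate 3. No label calls replicates separate cultures, so p-values reflect only how these libraries vary.

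The test was edgeR 4.0.16 in R 4.3.3 (filterByExpr, TMM, robust dispersions, quasi-likelihood F test, 1 mean per group in 1 fit, 17 comparisons). Adjustment was Benjamini-Hochberg across all tested genes, and a gene was called when the adjusted p was under 0.05. Standard errors and intervals were derived from the F test. Log2 CPM had a prior count of 2, and 0.5 was added to counts in ratios. The scripts were tested on simulated data. Alternatives were DESeq2 1.42.0, other scalings, no filter, the compared groups alone, a block on the title number and each replicate left out. The members and lists were chosen with earlier results of these data known. The rule for named genes was the 3 members, called pathway genes and the genes most like each member. The table's IDs matched no symbol (0 IDs), so the 8 pathway lists (69 genes) and 7 marker lists (42 genes) gave no result, and 1 similar ID is printed for each of 2 members.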

Additional observations from a re-analysis of the deposited data

How the results depend on the processing

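Every glutamate comparison and ratio kept its direction and its call under all 258 alternatives run for them. The rise over all 4 treatments ranged over these from 1.50 to 1.82 for Gadd45a, 3.91 to 4.19 for Gadd45b and 4.80 to 5.27 for Gadd45g, with library totals lowest in each case. That scaling moved the median of all genes by -0.19 and the members by as much. Of 576 alternatives for agent comparisons, 523 kept direction and call, which for most meant staying uncalled. A call was lost in 23 and gained in 8, and the sign turned in 22. The 23 all concerned the only agent results called in the main fit. These were Gadd45g with AH236 against DMSO in medium, and Gadd45b and Gadd45g with AH236 against IS141 over both media. They had 12, 21 and 21 alternatives in the same order. The share of all genes called was counted only for the main fit and for the fit without DMSO medium replicate 1.

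With 1 library left out, values in medium ranged for IS141 from -0.42 to 0.35 (Gadd45a), 0.21 to 0.79 (Gadd45b) and -0.39 to 1.09 (Gadd45g), for AH609 from -0.76 to 0.011, -0.27 to 0.32 and -0.84 to 0.63, and for AH236 from -0.41 to 0.36, -0.72 to -0.14 and -1.96 to -0.48 in the same order. The upper ends were reached without DMSO medium replicate 1. Gadd45b with AH236 was called at -0.72 (adjusted p = 0.0152) without DMSO medium replicate 2. Interactions ranged for IS141 from -0.46 to 0.31, -0.72 to -0.14 and -1.01 to 0.47, and for AH609 from -0.10 to 0.67, -0.12 to 0.46 and -0.49 to 0.99. For AH236 they ranged from -0.31 to 0.46, 0.07 to 0.65 and 0.32 to 1.80, and none of these was called. Gadd45a with AH609 in glutamate ranged from -0.15 to 0.015. Over both media AH236 against AH609 ranged from -0.43 to -0.26 for Gadd45b and -0.78 to -0.61 for Gadd45g, and AH236 against IS141 from -0.97 to -0.82 for Gadd45g.

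The fall of Gadd45g with AH236 in medium was not called with no filter (-1.60), with the title number as a replicate block (-1.57) or with the compared groups alone (-1.62). Its fall against IS141 was not called with no filter (-0.92) or the block (-0.90), or in glutamate only (-0.24), as for Gadd45b (-0.14). With the compared groups alone, Gadd45g was called with AH236 in glutamate (-0.17) and against AH609 (-0.71), as was Gadd45b (-0.37). Signs turned for Gadd45g with IS141 in medium under the block (0.00014), for Gadd45a with AH236 in glutamate under library totals (-0.024), and for IS141 against AH609 in glutamate only (-0.022 for Gadd45a, -0.13 for Gadd45b and -0.064 for Gadd45g). Chosen after seeing the data were the comparisons of 2 agents in medium only and in glutamate only, and leaving out DMSO medium replicate 1 for comparisons that hold no library of its group and, as a single library, for ratios. Leaving out each library of a compared group was planned. Setting out the fit without DMSO medium replicate 1 beside the main fit was chosen after its values were seen. The causes of the turned signs and changed calls were not tested. The title numbers gave no clear sign of pairing. The deviations of same-numbered medium and glutamate libraries correlated between -0.05 and 0.17, with 2 of 10 pairs over 0.1, both of them DMSO pairs. Pairs of unlike number were not examined, so this check cannot settle whether the numbers pair the libraries. The block changed no call of a member other than those named. Gadd45a has the fewest counts and so the widest counting error relative to its level.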
